A study of Mus musculus with 2 samples.

Results

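The genes described here are 40 genes of the endoplasmic reticulum (ER) secretory pathway, taken by symbol from a fixed list, in 2 single-cell RNA-seq libraries of mouse spleen. All 40 were listed in both tables, out of 30457 genes listed in either. By role they fell into 14 genes of protein folding, 6 of signal-peptide targeting, 9 of translocation, 3 of signal peptidase, 5 of oligosaccharyl transfer and 3 of ER-associated degradation. The genes were picked by symbol and not by a threshold on their levels, but with earlier results of these libraries known.

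Secreted and membrane proteins enter the ER while they are made. The signal recognition particle (Srp9, Srp14, Srp54a, Srp68, Srp72) binds the signal peptide and docks at its receptor (Srpr), and the Sec61 channel with its Sec62, Sec63 and Ssr partners passes the chain through the membrane. Signal peptidase (Spcs1 to Spcs3) cuts the signal peptide, and oligosaccharyltransferase (Ddost, Rpn1, Rpn2, Dad1, Ostc) adds sugar chains. Chaperones and disulfide isomerases then fold the protein, and Herpud1, Sel1l and Edem1 serve the removal of chains that do not fold. When folding is strained, the transcription factors XBP1 and ATF6 raise many of these genes through the ER stress response element of their promoters. Plasma cells, which release large amounts of antibody, are the best known case of a cell in the spleen with an expanded ER.

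Donors were female C57BL/6J mice carrying a subcutaneous Lewis lung carcinoma, a transplantable lung tumour line, and aged 10 weeks when the tumour was injected. A CD4 antibody, which depletes CD4 T cells, was given at 200 μg on days 5 and 9, spleens were taken on day 12, and the 3 spleens were combined into 1 suspension that was frozen and later thawed. Both libraries therefore share tumour and antibody, and no tumour-free or antibody-free spleen was analysed here. On 1 BD Rhapsody cartridge, a nanowell system with barcoded beads, 2000 cells were loaded, and equal portions of the beads went to TAS-Seq (amplification from an enzymatic cytidine tail) and to BD WTA (the kit of the manufacturer, based on random priming). With 1 library per method and 1 pool of spleens, no test was possible, and every value describes these libraries only.

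The promoter letters of the genes that held a complete ER stress response element are shown first, because XBP1 and ATF6 are known to act through that element. RefSeq promoters on GRCm38.p6, from 250 bases before to 50 bases after the annotated start, were matched by symbol for 33 of the 40 genes. Manf, Hyou1, Srp68, Sec61a1, Ssr2, Spcs3 and Ostc had no entry. Both strands were searched for the element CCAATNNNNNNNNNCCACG and for its second form ATTGGNCCACG, and capitals mark the matches.
Hspa5 (chr2:34772020-34772048, plus strand): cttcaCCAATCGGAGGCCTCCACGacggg
Hsp90b1 (chr10:86705510-86705694, minus strand): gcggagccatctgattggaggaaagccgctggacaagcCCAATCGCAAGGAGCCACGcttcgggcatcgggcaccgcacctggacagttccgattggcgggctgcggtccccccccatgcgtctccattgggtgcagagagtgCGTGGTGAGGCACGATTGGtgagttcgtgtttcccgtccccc
Calr (chr8:84847035-84847133, minus strand): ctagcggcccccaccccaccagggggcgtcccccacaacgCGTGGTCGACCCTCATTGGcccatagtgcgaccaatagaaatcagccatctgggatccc
Canx (chr11:50325760-50325858, minus strand): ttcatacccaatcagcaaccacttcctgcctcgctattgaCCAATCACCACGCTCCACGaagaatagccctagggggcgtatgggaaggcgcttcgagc
Pdia6 (chr12:17266451-17266544, plus strand): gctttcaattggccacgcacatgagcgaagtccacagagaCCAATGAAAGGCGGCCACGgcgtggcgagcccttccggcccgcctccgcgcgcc
Dnajc3 (chr14:118937787-118937885, plus strand): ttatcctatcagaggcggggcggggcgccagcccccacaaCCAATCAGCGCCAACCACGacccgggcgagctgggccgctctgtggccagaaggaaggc
Creld2 (chr15:88819480-88819578, plus strand): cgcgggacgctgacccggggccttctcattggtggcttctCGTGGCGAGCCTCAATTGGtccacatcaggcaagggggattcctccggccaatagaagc
Dnajb11 (chr16:22857847-22857867, plus strand): cggcgATTGGCCCACGcctgg
Herpud1 (chr8:94386337-94386427, plus strand): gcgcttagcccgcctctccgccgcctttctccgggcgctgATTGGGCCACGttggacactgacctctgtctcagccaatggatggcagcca

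The first form was found in 7 of the 33 promoters (21.2%), against 0.137% of the 27025 genes with a RefSeq promoter (0.119% of all promoters), and Hsp90b1 held it in both orientations. The second form was found in 2 of the 33 (6.06%), against 0.0444% of genes (0.0365% of all promoters). Of the 9 genes with either form 8 were folding genes, and Herpud1 was the other. The letters TGACGTGG, the core of a further element of this response, matched in 0 of the 33 and in 0.714% of all genes (0.676% of promoters). The bare site CCACG, which lies within both longer forms, was found in 24 (72.7%) and in 35.5% of all genes (32.8% of promoters). A match describes letters and does not show that a factor bound there.

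The TAS-Seq table held 736 barcodes and 38656790 reads, while 716 barcodes and 31608259 reads made up the BD WTA table, with no barcode in common. Filters on genes and mitochondrial reads left 732 and 708 cells, with a median of 46557 and 38426 reads. Reads were counted without molecular identifiers, so copies of the same molecule each count. Intervals on reads therefore cover the counting of reads only, and not amplification or the spread between cells. They are too narrow as a measure of the full uncertainty. Intervals on shares of cells cover only the sampling of cells within each library. Cells were classed from clusters of their own library, made without the 40 genes, together with the markers of each cell. This gave 210 TAS-Seq and 178 BD WTA follicular-like (FO-like) B cells, 49 and 47 marginal zone-like (MZ-like) B cells, 249 and 282 T-like cells, 23 and 23 NK-like cells and 24 and 23 myeloid-like cells. B-like cells, meaning FO-like, MZ-like and the remaining B cells, numbered 407 and 355. The same marker lists were used to name the classes, so their sums describe the classes and are no check of the labels. In B-like cells 7 B-cell markers summed to 9399 and 9849 CPM (reads of a gene scaled to the same total in every class). In T-like cells they summed to 113.5 and 43.7 CPM. For 11 MZ markers the sums were 5977 and 4962 CPM in MZ-like cells against 1401 and 1710 in FO-like cells. Reads of other cells were present as background, and more widely in the TAS-Seq library: at 20000 reads per cell the B-cell gene Cd79a had a read in 43.6% of TAS-Seq and 8.02% of BD WTA T-like cells.

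Levels are given as pooled CPM, the reads of a gene over all cells of a class scaled to 1000000 reads of that class. The 40 genes together took 5447 CPM of TAS-Seq FO-like cells, 5806 of MZ-like, 4338 of T-like, 8640 of NK-like and 7161 of myeloid-like cells. In the BD WTA library these sums were 5390, 5817, 4816, 6743 and 7954 CPM. T-like cells thus had the smallest sum in both libraries, and MZ-like and FO-like cells lay close together. Single cells varied more than the classes did: the sum ran from 704 to 16559 CPM over TAS-Seq FO-like cells (median 4956) and from 1512 to 16162 over BD WTA FO-like cells (median 5119). A gene was called higher or lower in a comparison when its pooled CPM differed at least 2-fold, with at least 3 reads in each class and reads in at least 10 cells.

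**Figure D1:**
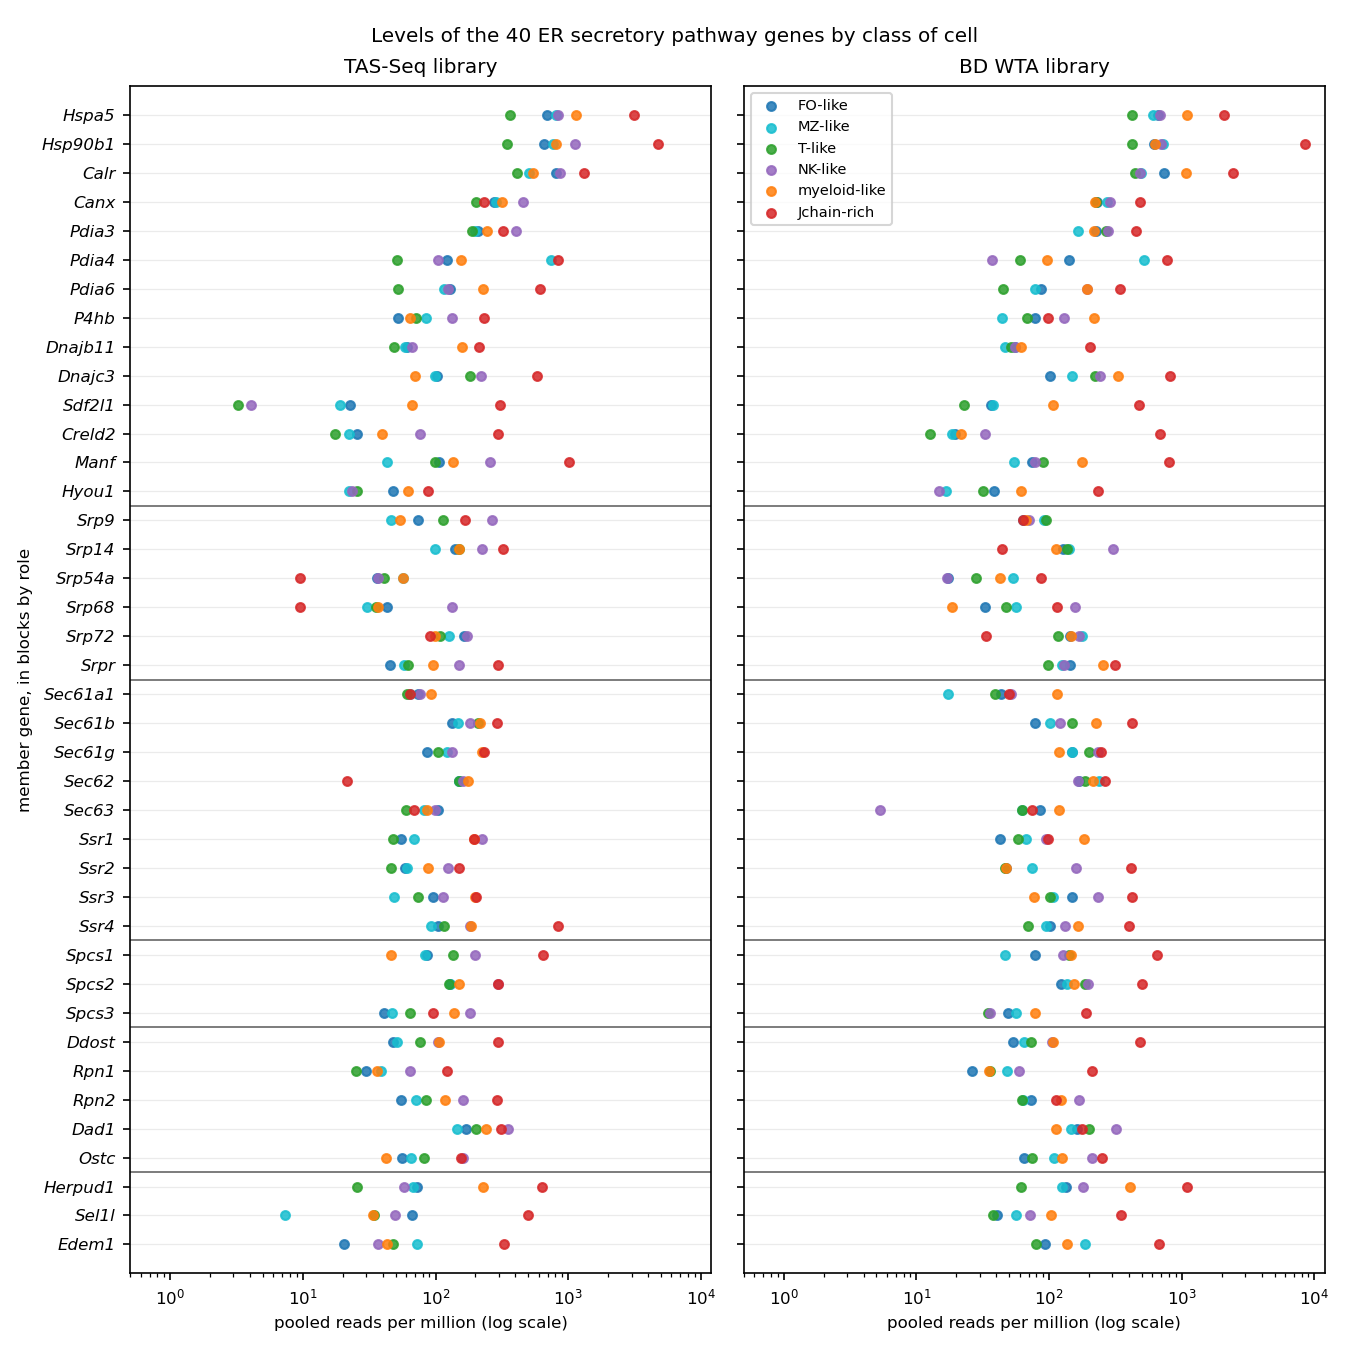
Pooled CPM (log axis) of the 40 genes, in blocks by role, in 6 classes of cell of each library. Each point is 1 class, and genes should not be ranked against each other because reads were not corrected for differences between genes. The Jchain-rich points lie apart on the right for most folding and degradation genes, and the MZ-like point of Pdia4 lies near its Jchain-rich point, at 743 and 833 CPM in the TAS-Seq library.

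The widest differences were in a few cells rich in Jchain, which encodes the joining chain of secreted IgM and IgA and is a plasma-cell gene. At a limit of 100 CPM of Jchain there were 3 such cells in the TAS-Seq library and 7 in the BD WTA library, and they were kept out of all other classes. They were not alike, so each is described. In TAS-Seq cell 1, Jchain stood at 6327 CPM and immunoglobulin genes took 33.8% of 262041 reads. It had all 40 genes detected, a summed level of 30949 CPM, the highest of 732 cells, and 33 of the 40 genes at least 2-fold above the pooled B-like level. The plasma-cell surface gene Sdc1 had 79 reads in it. TAS-Seq cells 2 and 3 had 173 and 166 CPM of Jchain, from 18 and 9 reads, and 1.99% immunoglobulin reads each. Their summed levels of 3941 and 2469 CPM were below those of 309 and 388 of the 407 B-like cells.

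In the BD WTA library, cells 1 to 4 had 40316, 38923, 33446 and 16149 CPM of Jchain and 63.7%, 71.6%, 60.5% and 34.7% immunoglobulin reads. Their summed levels were 11057, 10622, 29215 and 45633 CPM, which ranked 30, 39, 2 and 1 among 708 cells. The 2 cells with the most Jchain therefore did not have the highest sums. Because immunoglobulin reads take up part of the total, the sums were also taken over a total without immunoglobulin, Jchain and mitochondrial genes, which gave 32040, 40345, 79967 and 75691 CPM. On that scale 22, 28, 33 and 35 of the 40 genes were at least 2-fold above B-like cells, against 15, 15, 25 and 34 on the plain scale. Cell 5 had 7226 CPM of Jchain, 6.10% immunoglobulin reads and a sum of 8964 CPM, and cell 6, with only 17370 reads, had 3742 CPM, 9.73% and 15602 CPM. Cell 7 carried NK markers and 0.0854% immunoglobulin reads, with 34 Jchain reads and a sum of 8363 CPM.

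**Figure D2:**
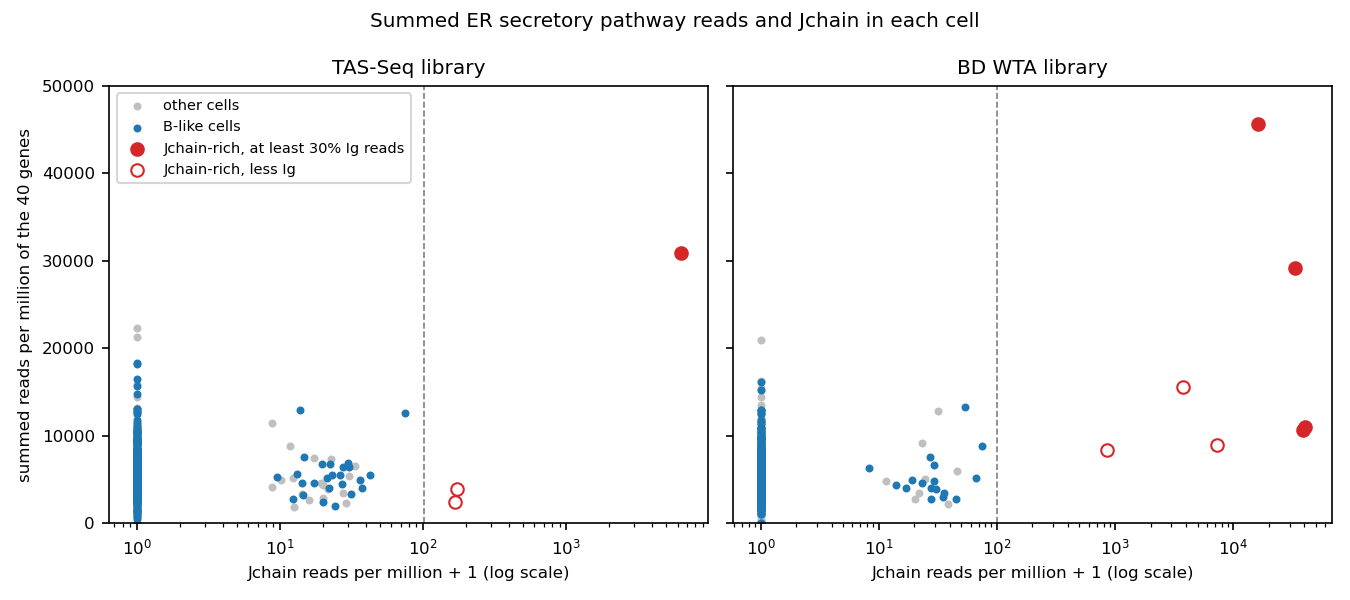
Each point is 1 cell, with Jchain CPM plus 1 on the horizontal log axis and the summed CPM of the 40 genes on the vertical axis; the dashed line is the limit of 100 CPM and filled red points have at least 30% immunoglobulin reads. The sums of filled cells run from 10622 to 45633 CPM, and the open TAS-Seq points, at 2469 and 3941 CPM, lie within the B-like cells.

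Pooled, the Jchain-rich cells stood against the other B-like cells with 29 of 40 genes called higher in the TAS-Seq library, where 22.8% of all 6391 genes tested were, and 3 called lower, where 19.5% were. The BD WTA library had 26 called higher (13.4% of 5706 genes) and 2 lower (42.5%). The same 23 genes, 57.5% of the list, were higher in both libraries, against 4.29% of the 3942 genes tested in both. The median log2 ratio of the 40 genes was 1.41 and 1.80, beside -0.02 and -0.72 over all genes. The low median over all BD WTA genes moved with the immunoglobulin share: without immunoglobulin, Jchain and mitochondrial reads it was 0.21. On that total 36 of the 40 genes were called higher, where 30.1% of all 5673 genes tested were. The TAS-Seq values rest on cell 1. Without it 16 genes could be compared, and 7 of them were called higher, where 39.6% of all 4104 genes tested were. The median log2 ratio was then 0.33 for the listed genes and 0.59 over all genes, so the list no longer stood above all genes. The log2 ratios of Hspa5 and Pdia4 became -2.06 and -2.91.

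Among folding genes, 11 of 14 were called higher in each library. Hspa5 (BiP, the main ER chaperone) was at 3116 CPM in TAS-Seq Jchain-rich cells and 764 in B-like cells, and at 2079 and 670.4 CPM in the BD WTA library. Its single-cell levels were 4889, 163 and 221 CPM in the TAS-Seq cells, and 1326, 352, 4808, 1401, 788, 4951 and 0 CPM in the BD WTA cells. The chaperone was thus high in some Jchain-rich cells and below the pooled B-like level in others. Hsp90b1 (GRP94, a chaperone of immunoglobulin chains) was at 4784 against 706 CPM in the TAS-Seq library and 8469 against 693 CPM in the BD WTA library. One cell, BD WTA cell 4, held it at 19104 CPM, and in cell 7 it had no read.

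Creld2, Sdf2l1 and Manf are small folding genes that respond to ER stress, and Creld2 had the highest ratio of the 40 genes in each library. Creld2, a secreted ER stress protein, was at 297 against 23.7 CPM in the TAS-Seq library (log2 ratio 3.65, exact interval 3.35 to 3.93) and at 690.5 against 25.4 CPM in the BD WTA library (4.76, 4.58 to 4.95). Sdf2l1, a cofactor of BiP, was at 307 against 28.5 and at 479.9 against 43.1 CPM. Manf, a chaperone-associated stress protein, was at 1018 against 106 and at 807 against 78.3 CPM. In each of them the TAS-Seq reads came chiefly from cell 1, where Manf stood at 1633, Sdf2l1 at 492 and Creld2 at 435 CPM. The co-chaperone Dnajc3 had log2 ratios of 2.60 and 2.70, and the BiP exchange factor Hyou1 1.04 and 2.91.

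The disulfide isomerases did not move as a block. Pdia4 had log2 ratios of 1.55 in the TAS-Seq and 1.78 in the BD WTA library, and Pdia6 2.04 and 1.97. P4hb, the subunit shared with prolyl hydroxylase, was at 231 against 67.9 CPM in the TAS-Seq library but at 98.6 against 80.1 CPM in the BD WTA library. Pdia3, which works with the lectin chaperones, stayed under 2-fold in both, at 0.65 and 0.85. The lectin chaperones themselves differed: Calr had log2 ratios of 0.90 and 1.75, and Canx, its membrane-bound relative, -0.32 and 0.73. Canx holds a complete stress element in its promoter all the same, and Dnajb11, a J-domain partner of BiP, had log2 ratios of 1.56 and 1.94. Of the 9 genes with an element, 7 were called higher in both libraries, as were 12 of the 24 matched genes without one.

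Targeting genes showed the least common direction. Srpr, the receptor, had log2 ratios of 2.55 and 1.46, although 26.9% of its 31-base words occur in other transcripts, mainly pseudogenes, so its counts are uncertain. Srp14 was at 324 against 135 CPM in the TAS-Seq library and at 44.3 against 146 CPM in the BD WTA library, and Srp68 pointed the opposite way, with 4 reads behind the TAS-Seq value. Srp54a, with 9.52 against 44.2 CPM and 86.4 against 53.8 CPM, shares 72.5% of its words with Srp54b and Srp54c, and cannot be separated from them. Srp72 was under the B-like level in both libraries, with log2 ratios of -0.73 and -2.36, and Srp9 had 1.03 and -0.14.

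Of the translocation genes, 6 and 4 of 9 were called higher. Ssr4, the delta subunit of the translocon-associated complex, was at 839.8 against 106 CPM in the TAS-Seq library and at 399 against 93.4 CPM in the BD WTA library. Sec61b, a small channel subunit, was at 293 against 138 and at 419 against 100.2 CPM, but shares 23.5% of its words with other genes. Sec61a1, the channel itself, was close to the B-like level in both libraries, with log2 ratios of -0.21 and 0.39. Ssr2 and Ssr3 were called higher in both libraries and Ssr1 and Sec61g in the TAS-Seq library. Sec62 was called lower in the TAS-Seq library on 9 reads, and was at 266 against 174 CPM in the BD WTA library, while Sec63 had log2 ratios of -0.41 and 0.03.

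Signal peptidase, oligosaccharyl transfer and degradation genes pointed upward in the pooled values. All 11 had log2 ratios above 0 in both libraries, and all but Spcs3, Rpn2 and Dad1 were called in both. Without TAS-Seq cell 1, the TAS-Seq log2 ratios of Spcs2 and Sel1l became -3.36 and -2.90, whereas Spcs1 and Edem1 were still called higher there. Spcs1 was at 642 against 87.4 CPM in the TAS-Seq library and at 655 against 77.7 CPM in the BD WTA library. Ddost, a subunit of the oligosaccharyltransferase, was at 297 against 54.2 and at 482 against 62.3 CPM, whereas Dad1 of the same enzyme was at 314 against 164 and at 176 against 152 CPM. All 3 degradation genes were called higher. Herpud1 was at 635 against 87.4 CPM in the TAS-Seq library and at 1091 against 154 CPM in the BD WTA library. Sel1l, which carries the Hrd1 ubiquitin ligase, had log2 ratios of 3.41 and 2.92, and Edem1, which helps to select misfolded glycoproteins, 3.05 and 2.49.

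Of 54 further pathway genes fixed as a list, 52 were listed in the tables. Jchain-rich cells had 22 of 46 tested called higher and 3 lower in the TAS-Seq library, and 23 of 42 higher and 3 lower in the BD WTA library. Those called higher in both were Derl3, Fkbp11, Xbp1, Txndc5, Sil1, Mzb1, Srprb, Fkbp2, Mcfd2, Lman1, Kdelr2, Sec11c, Derl1 and Krtcap2. Xbp1, the transcription factor of the secretory programme, was at 585 against 50.3 CPM and at 1596 against 68.3 CPM. Mzb1, a B-cell ER protein that aids antibody assembly, was at 954 against 178 and at 1903 against 212 CPM. Derl3, a degradation gene known from plasma cells, had log2 ratios of 5.69 and 5.72. The stress list of 12 immediate early and heat shock genes, read as a sign of handling, summed to 5357 and 4027 CPM in Jchain-rich cells and to 5265 and 4059 CPM in B-like cells.

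In the comparison of MZ-like with FO-like cells, Pdia4 was called higher in both libraries and Hyou1 lower. Each is 2.5% of the list, beside 2.07% higher and 3.66% lower of the 8842 genes tested in both. Their values are therefore given as a description. Pdia4 was at 743 CPM in TAS-Seq MZ-like cells and 122 CPM in FO-like cells, and at 520 and 141 CPM in the BD WTA library. The log2 ratios were 2.60 (exact interval 2.50 to 2.70) and 1.89 (1.77 to 2.001), or 6.07-fold and 3.70-fold. Many cells carried this difference: at 20000 reads each, 93.8% of TAS-Seq MZ-like cells had a Pdia4 read against 32.9% of FO-like cells, and 76.1% against 19.0% in the BD WTA library. T-like cells, which show the reach of background reads and of their own expression together, had 19.1% and 10.3%. MZ-like cells were deeper, with a median of 82289 and 62668 reads against 44763 and 38154. At 20000 reads the ratios were 2.52 and 2.17. Under all 9 alternative settings Pdia4 remained at least 2-fold higher in MZ-like cells of both libraries.

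**Figure D3:**
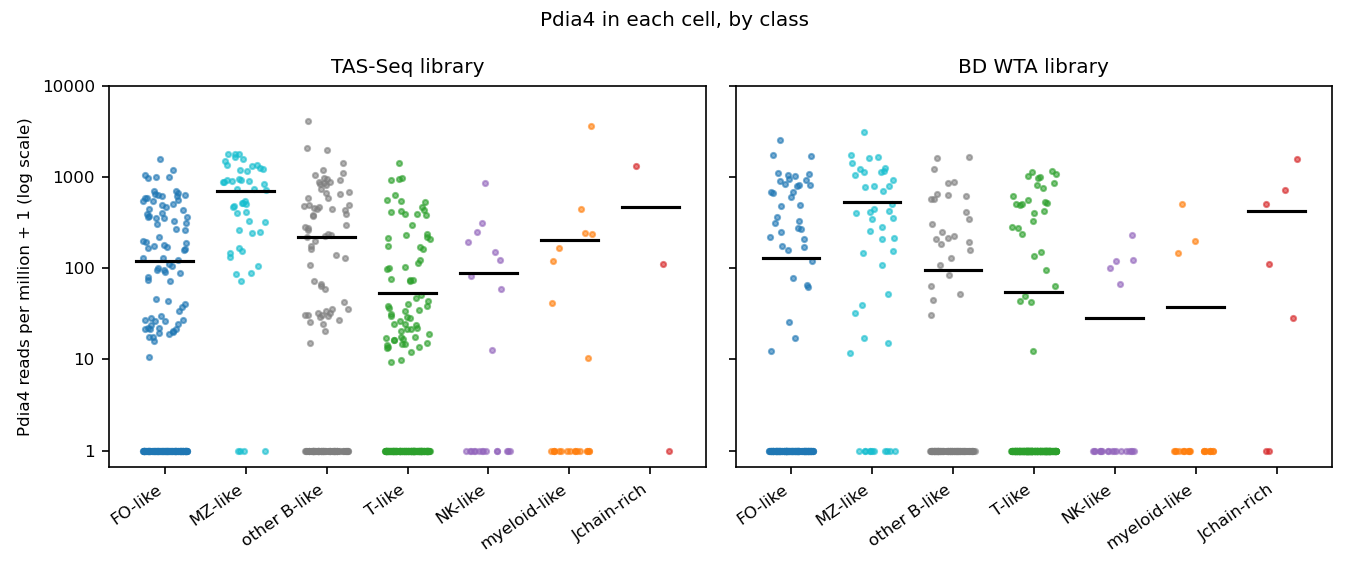
Pdia4 CPM plus 1 (log axis) in each cell of 7 classes of the TAS-Seq and BD WTA libraries, with a bar at the mean CPM of the class plus 1 and cells with no read on the line at 1. Most MZ-like cells lie above 100 CPM, whereas most FO-like and T-like cells have no read in either library.

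None of the other 3 disulfide isomerases of the list was called with Pdia4. In the TAS-Seq library Pdia6 was at 117 CPM in MZ-like and 129 CPM in FO-like cells, and Pdia3 at 199 and 209 CPM, and in the BD WTA library the pairs were 78.4 and 87.1 CPM and 166 and 225 CPM. P4hb was at 85.2 and 52.2 CPM in the TAS-Seq library and at 43.8 and 78.0 CPM in the BD WTA library, so that its direction differed between the libraries. Among the thioredoxin-fold genes of the further list, Txndc5 had log2 ratios of -0.89 and -0.94 and Erp44 0.46 and -0.25, neither gene past 2-fold. Others on that list, such as Dnajc10 and Erp29, are not given here. In all, 2 of 40 genes were called higher in TAS-Seq MZ-like cells, where 10.4% of all genes were, and 3 lower, where 13.5% were. In the BD WTA library 2 were called higher (11% of all genes) and 2 lower (16.8%). The second common call was Hyou1, lower at 22.3 against 47.5 CPM and at 16.6 against 38.4 CPM, on 91 and 52 MZ-like reads. In the BD WTA library 5 cells held 96.2% of those 52 reads, and classes from the markers alone gave a log2 ratio of -0.35.

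Edem1 was at 72.9 against 20.4 CPM in the TAS-Seq library and at 186 against 94.0 CPM in the BD WTA library, just under the call with a log2 ratio of 0.98. Sel1l, lower in TAS-Seq MZ-like cells with 7.37 against 66.5 CPM, was at 56.3 against 40.5 CPM in the BD WTA library. Manf was lower only in the TAS-Seq call, at 42.7 against 106 CPM, with 54.1 against 73.8 CPM in the other library. The remaining BD WTA calls, Srp54a higher and Sec61a1 lower, had TAS-Seq log2 ratios of 0.65 and -0.20, and 5 cells held 86.3% and 100% of their MZ-like reads. The median log2 ratio of the 40 genes was -0.05 and 0.10, beside 0.002 and -0.05 over all genes. In the further pathway list 3 of 46 were called higher and 10 lower in the TAS-Seq library, and 4 of 44 higher and 3 lower in the BD WTA library, with only Fkbp2, lower, common to both.

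B-like cells were compared with T-like cells next. In the TAS-Seq library 6 genes were called higher in B-like cells, where 22.1% of all genes were, and 0 lower, where 8.67% were. The BD WTA library had 3 called higher (17.9% of all genes) and 0 lower (12.2%). The members' shares were below those of all genes, and the median log2 ratio was 0.12 and 0.19 beside 0.22 and 0.05. Pdia4 and Herpud1 were called in both libraries, which is 5% of the list beside 9.31% of the 12454 genes tested in both. Pdia4 was at 285 CPM in B-like and 51.4 in T-like TAS-Seq cells, and at 225 and 60.4 in BD WTA cells. Herpud1 was at 87.4 and 25.5 CPM in the TAS-Seq library and at 154 and 61.3 CPM in the BD WTA library.

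The main chaperones leaned the same way without reaching 2-fold in both. Hspa5 was at 764 and 363 CPM in the TAS-Seq library (log2 ratio 1.07) and at 670.4 and 423 CPM in the BD WTA library (0.67). Hsp90b1 had log2 ratios of 1.04 and 0.71, Calr 0.78 and 0.71, and Pdia6 1.53 and 0.95. Creld2 had 0.44 and 1.01, with 5 cells holding 66.0% and 81.5% of its T-like reads. Sdf2l1 had 3.14 in the TAS-Seq library, from 46 T-like reads, and 0.93 in the BD WTA library. Dnajc3 pointed the other way in both, at 96.3 against 182 CPM and at 125 against 223 CPM, just under the call. In the further list, 14 of 48 genes were called higher and 2 lower in the TAS-Seq library, and 15 of 47 and 3 in the BD WTA library.

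Common to both were Atf6, Ero1lb, Syvn1, Dnajb9, Txndc5, Eif2ak3, Erp29, Ppp1r15a, Atf4, Fkbp11 and Atf6b, which include 3 sensors of the unfolded protein response (Atf6, Atf6b and Eif2ak3), and, lower, Sec24d. Dnajb9, a BiP co-chaperone, was at 105 against 14.7 CPM and at 183 against 43.3 CPM. Xbp1 was at 50.3 against 7.37 CPM and at 68.3 against 36.3 CPM. Mzb1 marked B-like cells in both libraries, at 178 and 212 CPM, and had 21 reads in TAS-Seq and 1 read in BD WTA T-like cells. The summed stress list also differed, at 5265 and 4059 CPM in B-like against 2786 and 2341 CPM in T-like cells, and its part in these ratios was not tested.

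**Figure D4:**
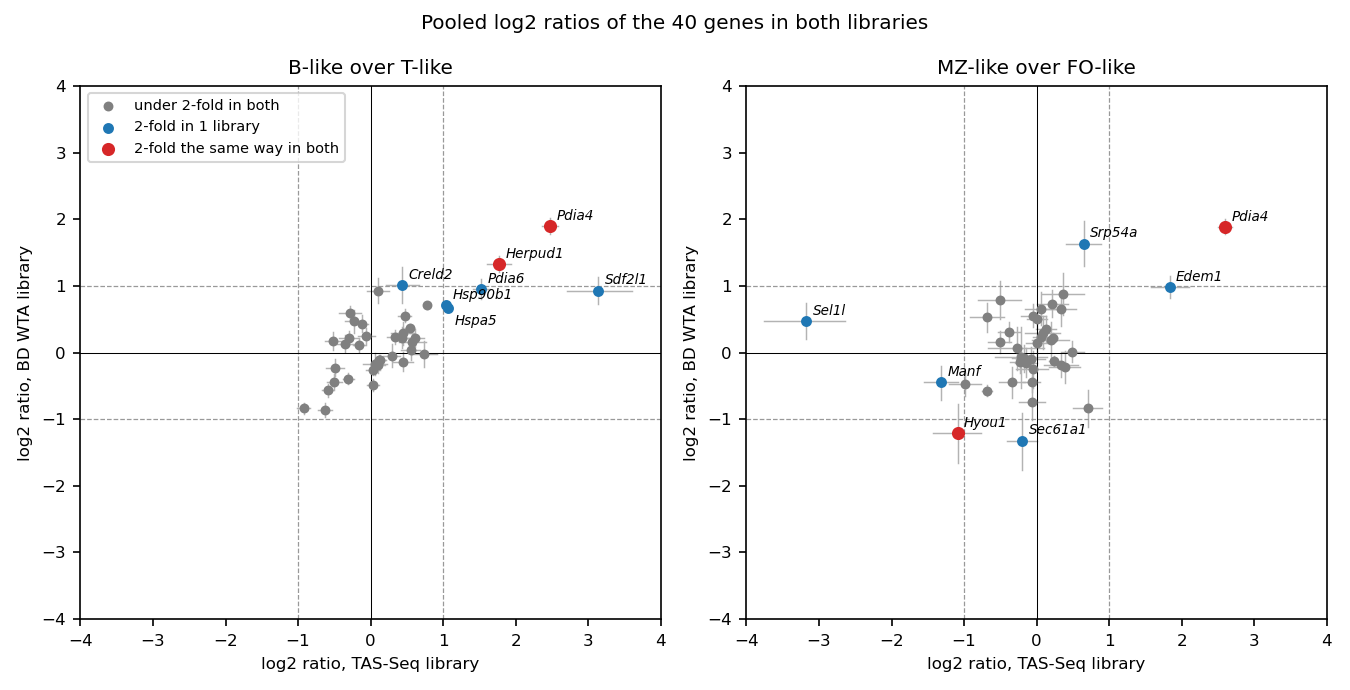
Log2 ratios of the 40 genes in the TAS-Seq library (horizontal) and the BD WTA library (vertical), for B-like over T-like cells and for MZ-like over FO-like cells, with 95% exact counting intervals and dashed lines at 2-fold. Pdia4 is the point farthest to the upper right for MZ-like over FO-like, at 2.60 and 1.89, and most of the other genes lie inside the dashed square in both panels.

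NK-like and myeloid-like cells, each 23 or 24 cells per library, had larger sums than T-like cells. Against T-like cells, 18 of 40 genes were called higher in TAS-Seq NK-like cells (27.2% of all genes) and 0 lower (18.1%). Of 38 tested in the BD WTA library, 9 were higher (25.5%) and 2 lower (17.8%), Sdf2l1 and Edem1 having no NK-like read there. Srp68, Creld2, Pdia6, Ssr2 and Herpud1 were called higher in both, or 13.2% of the 38, beside 9.61% of the 7079 genes tested in both. Their values are therefore given as a description. Srp68, the partner of Srp72 in the signal recognition particle, was at 134 CPM in NK-like and 35.5 in T-like TAS-Seq cells, and at 157 and 47.2 in BD WTA cells. Ssr2 was at 123 and 46.5 CPM and at 158 and 46.9 CPM, and Pdia6 at 124 and 52.2 CPM and at 194 and 45.0 CPM. The stress list summed to 4612 and 4564 CPM in NK-like against 2786 and 2341 CPM in T-like cells, and 5 cycling markers to 539 and 136 against 113.5 and 71.7 CPM. Their part in these ratios was not tested.

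In myeloid-like cells 13 genes were called higher (27.9% of all genes) and 3 lower (23.3%) in the TAS-Seq library, and 12 higher (22.7%) and 1 lower (27.5%) in the BD WTA library. Sdf2l1, Herpud1, Pdia6, Ssr1, Hspa5 and Spcs3 were higher in both, or 15% of the list beside 11.3% of the 7192 genes tested in both, and are likewise described only. Herpud1 was at 227 CPM in myeloid-like and 25.5 in T-like TAS-Seq cells, and at 408 and 61.3 in BD WTA cells. Hspa5 was at 1136 and 363 CPM and at 1102 and 423 CPM. Xbp1 went the same way, at 142 and 7.37 CPM and at 265 and 36.3 CPM. The stress list summed to 10763 and 8794 CPM in myeloid-like cells, more than in any other class, and its part in these values was not tested.

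The last comparison set the methods side by side. Over all cells 0 of 40 genes were called higher in the TAS-Seq library, where 16.5% of all genes were, and 3 lower, where 11.8% were, with a median log2 ratio of -0.12 beside 0.10. In B-like cells 0 were higher (18.1% of all genes) and 2 lower (11.3%), and in T-like cells 0 were higher (16.8%) and 2 lower (14.4%). Hspa5 was at 659 and 627 CPM in the libraries, Calr at 598 and 675, Canx at 275 and 276, and Hsp90b1 at 629 and 806. Thus these named chaperones were less than 2-fold apart between the methods. Over all 14 folding genes the log2 ratios ran from -1.12 for Sdf2l1 to 0.46 for Pdia6. Herpud1 was lower at 73.6 against 157 CPM, Edem1 at 46.6 against 114 CPM and Sdf2l1 at 22.5 against 48.9 CPM. The BD WTA library held more Jchain-rich cells, which are kept out of B-like and T-like cells. Within B-like cells Herpud1 was at 87.4 and 154 CPM, under 2-fold, whereas within T-like cells it was at 25.5 and 61.3 CPM and was called lower under all 7 alternative settings. Sdf2l1 was likewise called there, at 3.23 and 22.7 CPM. The T-like classes were not fully matched, because 26 TAS-Seq T cells of an unnamed cluster entered no class. With classes from the markers of each cell, the median log2 ratio of the 40 genes in T-like cells was -0.03 instead of -0.11. Over all genes it was 0.06 instead of 0.02. Edem1 was called in B-like cells, at 39.4 and 119 CPM, and not in T-like cells, at 47.9 and 79.1 CPM. Srpr was at 50.2 and 114 CPM in B-like cells, and Sec61a1 leaned to TAS-Seq over all cells, at 71.4 and 41.5 CPM.

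Detection gave another picture than level. With every cell thinned to 20000 reads, which 707 TAS-Seq and 645 BD WTA cells reached, 37 of the 40 genes were seen in a larger portion of TAS-Seq cells. For 22 of them the exact binomial intervals lay apart, and for 0 in the other direction. Cells are not replicates of a method, so intervals apart describe these libraries and are no test of the methods. The same count over all genes was not taken, so the 22 cannot be read as particular to the list. The median share was 25.5% and 19.1%, and the median difference 6.44 points beside 2.15 points over 18382 genes, of which 87.1% had the larger TAS-Seq share. Those genes were not matched to the 40 in level, so the difference between these medians cannot be credited to the list. Hspa5 had a read in 74.5% and 64.8% of cells, Hsp90b1 in 75.4% and 57.1%, Calr in 76.4% and 62.9%, and Pdia6 in 28.6% and 13.3%. Sdf2l1, Srpr and Edem1 were the 3 with the larger BD WTA share, and the widest gap among them was that of Srpr, at 16.7% and 18.6%. At 5 reads instead of 1, 32 genes still had the larger TAS-Seq share, with intervals apart for 5, again without these counts over all genes.

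The background reads named above moved with this difference: Cd79a, which T cells do not express, was seen in 43.6% of TAS-Seq T-like cells and 8.02% of BD WTA ones, but at 5 reads in 0.830% and 1.91%. Cd3e, a T-cell gene, was seen in 10.2% and 1.84% of B-like cells. The part of such reads in the detection of the 40 genes was not tested. The median cell had 12 of the 40 genes with a read in TAS-Seq B-like cells and 8 in BD WTA ones, and 11 and 8 in T-like cells. The medians were 14.5 and 12 in MZ-like cells and 15 and 10 in NK-like cells.

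**Figure D5:**
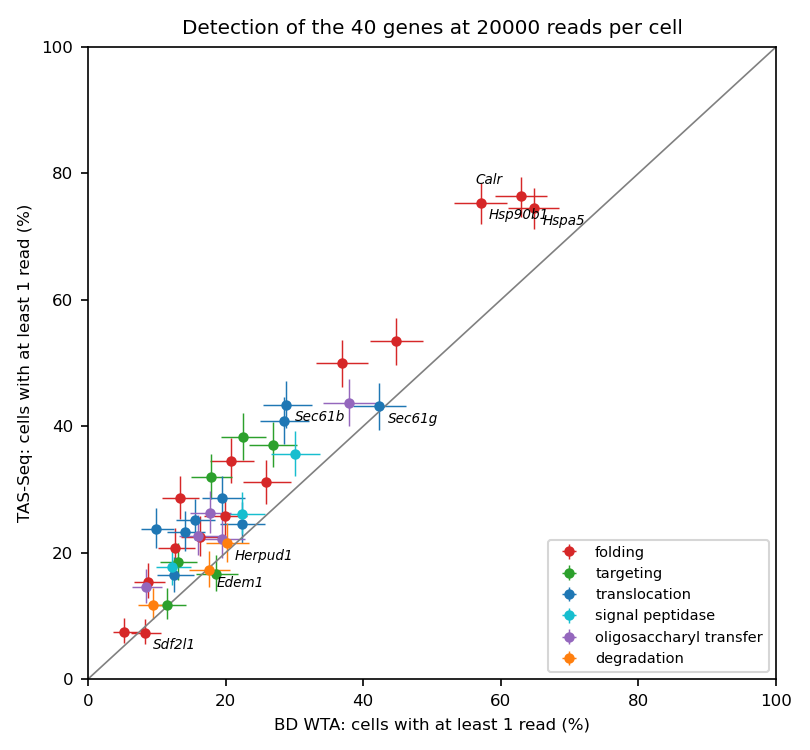
Percent of cells with at least 1 read of each of the 40 genes at 20000 reads per cell, BD WTA on the horizontal and TAS-Seq on the vertical axis, coloured by role, with 95% exact binomial intervals and a line of equality. Of the 40 points 37 lie above the line, and Hspa5, Hsp90b1 and Calr are the 3 farthest up.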

How the data were processed

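The deposited values are raw read counts for each gene in each barcode, which the authors made without molecular identifiers. The submitters' processing notes name cutadapt 2.10, Bowtie2 2.4.2 and R 3.6.3. By the methods of the study, reads were mapped on the forward strand to the Ensembl cDNA and non-coding RNA of GRCm38, so near-identical transcripts can share reads, and barcodes past the inflection of the ranked totals were kept. A background subtraction described there is not stated for these tables.

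Cells with at least 500 genes and at most 25% mitochondrial reads were kept. Each library was clustered alone with Seurat 5.3.0 (20 principal components, resolution 1, reads regressed out), without the 40 genes among the variable genes. MZ-like, FO-like, other B-like and T-like cells needed a cluster name and their own marker call (at least 2 markers at 5 reads, most of any list), and NK-like and myeloid-like cells the marker call. A TAS-Seq cluster of mixed NK and T markers stayed unnamed, and 26 of its T cells entered no class. Another annotation could differ, and this naming rule was set after the cells were seen. Scrublet in scanpy 1.11.5 called 3 TAS-Seq and 4 BD WTA doublets, which were kept.

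Reads were pooled per class as CPM. Ratios carry 95% exact conditional binomial intervals, and shares exact Clopper-Pearson intervals. With 1 library per method no test was run, and a call means at least 2-fold. Word sharing used 31-base words of GENCODE M21 transcripts, and promoters came from RefSeq. TMM factors from edgeR 4.0.16, thinning, other totals, stricter minimums and other classes were the alternatives. Named genes were those at least 2-fold apart the same way in both libraries plus fixed members. The members, lists and comparisons were chosen with earlier results of these data known. The scripts were tested on simulated data.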

Additional observations from a re-analysis of the deposited data

Results flagged for a closer look

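Of the 40 genes, 2 targeting genes of the signal recognition particle went opposite ways in the libraries when Jchain-rich cells were set against other B-like cells. This difference was not tested. Srp14 had a log2 ratio of 1.26 in the TAS-Seq library, from 136 Jchain-rich reads in 2 of 3 cells, and of -1.72 in the BD WTA library, from 40 reads in 2 of 7 cells. Srp68 had -1.97 in the TAS-Seq library, from 4 reads, and 1.45 in the BD WTA library, from 103 reads of which 58 lay in 1 cell.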

How the results depend on the processing

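No paired analysis was possible because there was only 1 library of each kind and no comparison used a test. Of the counts of called genes and of detected genes, 127 values under the alternatives stayed near the reported one and 21 moved. For TAS-Seq against BD WTA over all cells, genes called lower numbered 1 with the mean over cells and 1 with thinned cells, those called higher in B-like cells 1 and 1, and those called higher in thinned T-like cells 2. For B-like against T-like cells, TMM factors gave 1 lower gene in the TAS-Seq library, and the mean over cells and thinning gave 6 and 5 higher and 1 and 1 lower in the BD WTA library. For MZ-like against FO-like BD WTA cells, thinning gave 4 higher, FO-like with the other B-like cells 1, and marker classes 0 lower. For Jchain-rich cells, the TAS-Seq count of lower genes was 5 with the mean over cells, 0 at 10 reads and 1 with thinning. The higher count was 7 of 16 without the top Jchain cell, where 39.6% of all genes were. The BD WTA lower count was 1 without immunoglobulin and mitochondrial reads. Genes with detection intervals apart numbered 12 at 2 reads, 5 at 5 reads and 34 without thinning, and these counts were not taken over all genes. Turned directions were Sec61b (-0.21) and Spcs2 (-0.23) with thinning and, without the top TAS-Seq Jchain cell, Hspa5 (-2.06), Pdia4 (-2.91), Sel1l (-2.90), Spcs2 (-3.36) and Ssr3 (-3.87). Srp54a became -0.0016 in BD WTA MZ-like cells with the other B-like cells added to FO-like. That last setting, the Jchain-rich cells with at least 30% immunoglobulin reads and thinning with marker classes were chosen after the data were seen. Causes were not tested.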
